A study of Homo sapiens with 8 samples.

Results

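The collagen genes were taken as the rows of the expression table whose symbol is COL, a type number, A and a chain number, which gave 43 of 22504 genes. By class, fixed from textbook knowledge, 11 of them encode fibrillar chains, 8 encode basement membrane chains (type IV and its relatives types XV and XVIII), and 24 encode other collagens. The cells were U2OS, an established human osteosarcoma line, and polyadenylated RNA was sequenced. They overexpressed the actin mutant G13R or expressed GFP as the control, and both kinds were taken during normal growth or following serum stimulation. The 4 groups held 2 libraries each, 8 in all. The labels do not give the actin gene that carries the mutation, the promoter that drives it, whether the lines are clones, or how long serum was applied. G13R is known as an actin that does not polymerize, and the study's title concerns nuclear actin and inducible transcription.

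Collagens are built from 3 alpha chains that wind into a triple helix, in which glycine recurs at regular, short intervals. Fibrillar types I, II, III, V and XI form the banded fibrils of bone, skin and cartilage, type IV forms the sheet of basement membranes, and type VI forms beaded filaments close to the cell surface. FACIT collagens (fibril-associated, with interrupted helices) sit on fibrils, and transmembrane collagens stay anchored in the plasma membrane. Type I collagen, normally a heterotrimer of COL1A1 and COL1A2 chains, is the main protein of bone matrix, and osteoblasts are its best known source.

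Values are FPKM, fragment counts scaled to transcript length and to the mapped fragments of the library, so levels can be compared between genes per length. The summed FPKM of a library lay between 496166 and 559496, and 12065 to 12568 genes reached 1 FPKM. The actin gene ACTB stood at 2543 to 2779 FPKM in the GFP libraries and 7949 to 11245 in the G13R libraries, and FPKM cannot tell mutant from endogenous transcripts. The GFP serum pair was the least alike, with 186 genes apart by more than 2-fold, against 87 to 102 in the other 3 pairs of replicates. Of 9 osteoblast lineage markers 6 reached 1 FPKM in at least 2 libraries, among them RUNX2, ALPL and SPP1, while SP7 and IBSP, defining genes of mature osteoblasts, stayed under 0.2 FPKM. Endothelial markers summed to at most 1.09 FPKM, with PECAM1 at 0 in all 8 libraries, and the leukocyte list (7 genes) summed to 15.6 to 18.9. Replicates are not described as separate cultures, so the p-values rest on a spread between libraries that may be purely technical.

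Only a subset of the family was measurable. A gene was tested if it had at least 1 FPKM in at least 2 libraries, and 23 of the 43 collagens passed: 7 of 11 fibrillar, 4 of 8 basement membrane and 12 of 24 other genes. Of the 23, 17 had 1 FPKM in all 8 libraries, and COL11A1, COL11A2, COL5A2, COL5A3, COL18A1 and COL19A1 had it in fewer, so a gene of this second kind may have passed through the group in which it was high. All collagens together summed to 382 to 415 FPKM per library, with all 4 groups in that range. Fibrillar genes made up 55.8 to 71.3 FPKM of it, basement membrane genes 108 to 138 and the other collagens 193 to 236.

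**Figure D1:**
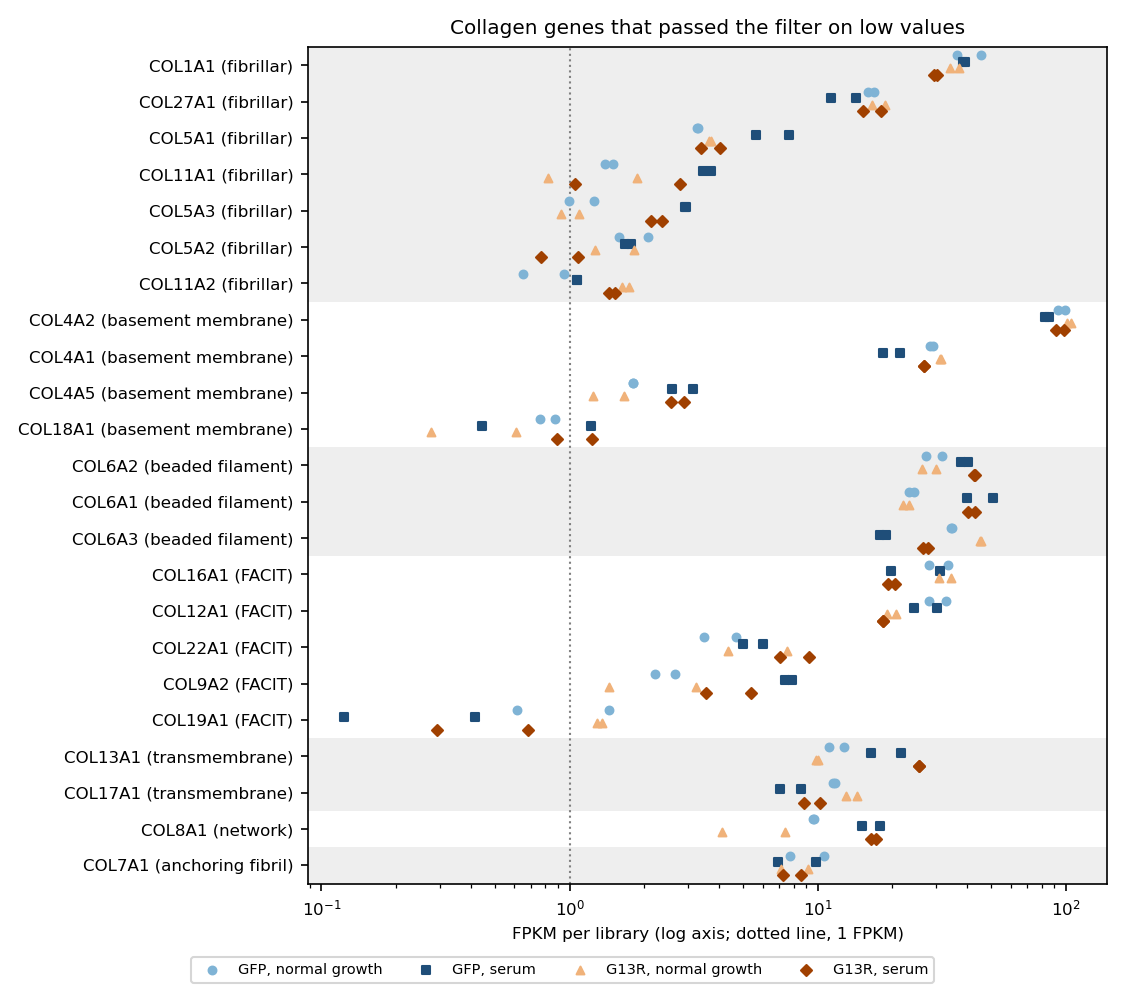
Levels of the 23 collagen genes that passed the filter on low values, by class, with 1 point per library on a log axis in FPKM. Colour and shape mark the 4 groups, and COL4A2 is the highest gene, at 82.3 to 105 FPKM.

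COL4A2 was the most abundant collagen transcript, with a mean of 94.5 FPKM over the 8 libraries. COL1A1, the major chain of type I collagen, followed at 36.4 FPKM, then the type VI chains COL6A2 at 34.9, COL6A1 at 33.5 and COL6A3 at 31.4 FPKM. The ranges of these last 4 genes over the libraries overlapped, so their order is not firm. COL1A1 stood at 29.5 to 45.6 FPKM, but its partner chain COL1A2 was at most 0.293 FPKM and was listed at 0 in 4 of 8 libraries. COL3A1, which encodes the other abundant fibrillar collagen of soft tissue, was at most 0.374 FPKM, and the cartilage collagen gene COL2A1 at most 0.0659 FPKM.

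The 20 collagens that did not pass stayed under 1 FPKM in every library, apart from COL25A1, which reached 1.31 FPKM in G13R normal replicate 1 and at most 0.428 in the other 7. They were COL1A2, COL2A1, COL3A1 and COL24A1 (fibrillar), COL4A3, COL4A4, COL4A6 and COL15A1 (basement membrane), COL6A5 and COL6A6 (beaded filament), COL9A1, COL9A3, COL14A1, COL20A1 and COL21A1 (FACIT), COL23A1 and COL25A1 (transmembrane), COL8A2 and COL10A1 (network) and COL28A1. COL9A1 was listed at 0 in all 8 libraries.

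The serum comparisons ask which collagens changed between normal growth and serum stimulation within each kind of cell. Serum itself cannot be told apart from any other difference between these conditions. Type VI collagen is described first, because its chains moved in opposite directions. COL6A1 and COL6A2 rose and COL6A3 fell after serum, in GFP cells and in G13R cells alike. In RNA from whole cultures, fewer cells of a type and less RNA per cell cannot be told apart.

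COL6A1 encodes the alpha1 chain of type VI collagen (chromosome 21, 47401651 to 47424964, hg19). It stood at 23.3 and 24.4 FPKM in the 2 GFP libraries in normal growth and at 40.1 and 50.8 in the 2 serum-stimulated ones. G13R libraries had 22.1 and 23.4 in normal growth against 40.3 and 43.3 after serum. All 4 serum libraries were above all 4 normal growth libraries. The log2 fold change, on the log2(FPKM + 1) scale used throughout, was 0.90 ± 0.12 (SE) in GFP cells (adjusted p = 0.000663, limma) and 0.85 ± 0.12 in G13R cells (adjusted p = 0.00255).

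COL6A2, the alpha2 chain gene, lies on the same chromosome (47518011 to 47552763), 93046 bases beyond COL6A1. Its values in GFP cells were 27.3 and 31.6 FPKM in normal growth against 37.7 and 40.5 after serum, and in G13R cells 26.5 and 30.1 against 43.1 and 42.6. The serum libraries again lay above the normal growth libraries, by less than for COL6A1. The log2 fold changes were 0.40 ± 0.11 in GFP cells (adjusted p = 0.021) and 0.59 ± 0.11 in G13R cells (adjusted p = 0.00884). The GFP call was lost without GFP normal replicate 1 (adjusted p = 0.153), without GFP serum replicate 2 (0.0894) and with only the compared libraries in the fit (0.0536). The G13R call was lost without G13R normal replicate 1 (0.0782) and without G13R serum replicate 1 or 2 (0.0669 and 0.0663).

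COL6A3, the gene of the longer alpha3 chain (chromosome 2, 238232646 to 238323018), moved the other way. It fell from 34.8 and 34.4 FPKM to 17.8 and 18.9 in GFP cells, and from 45.3 and 45.5 to 27.9 and 26.5 in G13R cells. Replicates were close to each other, and no serum library reached the lowest normal growth library. The log2 fold changes were -0.88 ± 0.10 in GFP cells (adjusted p = 0.000222) and -0.72 ± 0.10 in G13R cells (adjusted p = 0.00178). The COL6A1 and COL6A3 calls of both kinds of cells held in each of the 12 alternative settings.

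The 3 chains assemble into 1 monomer, so their ratio is of interest. In GFP cells COL6A3 stood at 1.41 to 1.5 times the FPKM of COL6A1 during normal growth and at 0.372 to 0.443 times after serum. In G13R cells the ratio was 1.94 to 2.05 in normal growth and 0.613 to 0.693 after serum. Thus COL6A3 was above COL6A1 in all 4 normal growth libraries and below it in all 4 serum libraries. The ratio of COL6A1 to COL6A2 moved less, from 0.77 to 0.852 in normal growth to 0.934 to 1.25 after serum. The summed type VI signal was 85.4 to 99.1 FPKM in normal growth and 95.8 to 112 after serum. The alpha5 and alpha6 chain genes COL6A5 and COL6A6 were at most 0.0723 and 0.027 FPKM.

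**Figure D2:**
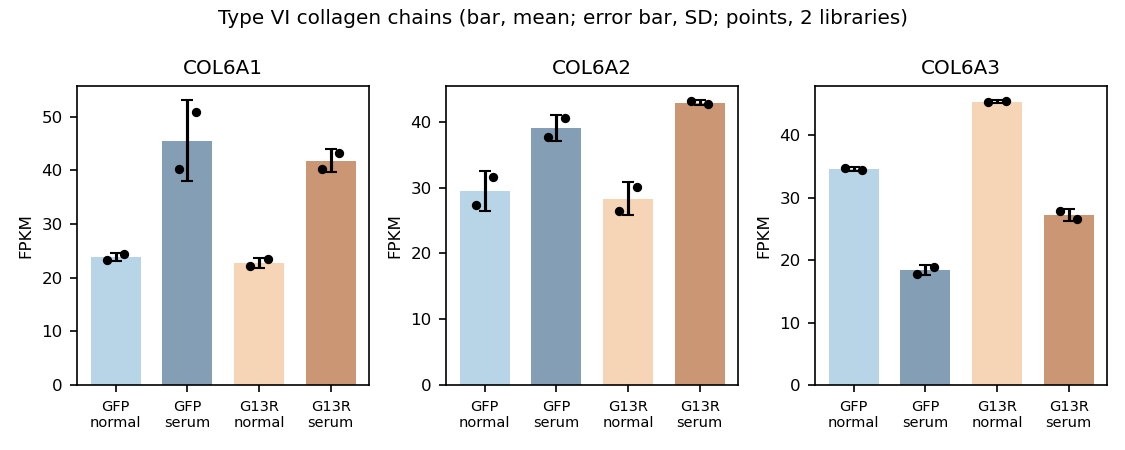
FPKM of the 3 expressed type VI collagen chains in the 4 groups; bars are means, error bars SD and points the 2 libraries. COL6A1 and COL6A2 are higher in the serum groups of both kinds of cells, and COL6A3 is lower.

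The windows around the annotated starts of COL6A2 and COL6A3 are printed because these partner genes moved in opposite directions; COL6A1 has no entry in the sequence table. Each window runs from 250 bases before to 50 bases after a start, from RefSeq on GRCh38.p14, 5′ to 3′ on the gene's strand. Capitals mark matches on either strand to 7 motifs: the TATA box TATAAA, the CCAAT box CCAAT, the GC box GGGCGG, the AP-1 element TGANTCA, the TEAD element GGAATG, the SMAD element CAGAC, and the CArG box bound by SRF. COL6A2 is at chr21:46097862-46098161 on the plus strand, and COL6A3 at chr2:237414115-237414414 on the minus strand.
COL6A2: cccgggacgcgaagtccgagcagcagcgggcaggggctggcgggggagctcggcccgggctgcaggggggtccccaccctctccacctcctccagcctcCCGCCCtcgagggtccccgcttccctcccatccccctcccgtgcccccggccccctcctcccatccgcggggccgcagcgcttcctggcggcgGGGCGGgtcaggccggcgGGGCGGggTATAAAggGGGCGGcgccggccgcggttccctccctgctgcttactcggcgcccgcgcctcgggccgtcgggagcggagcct
COL6A3: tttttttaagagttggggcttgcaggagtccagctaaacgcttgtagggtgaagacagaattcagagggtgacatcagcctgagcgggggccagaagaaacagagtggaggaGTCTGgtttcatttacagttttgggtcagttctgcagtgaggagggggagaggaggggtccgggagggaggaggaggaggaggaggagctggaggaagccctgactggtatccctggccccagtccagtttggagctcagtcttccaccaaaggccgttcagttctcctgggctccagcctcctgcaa
The COL6A2 window held 79.3% G and C, 1 TATA box whose first base lies 32 bases before the start, and 4 GC boxes. The COL6A3 window held 56.3% G and C, no TATA or GC box, and 1 SMAD element. The marked matches do not overlap each other. Among all 35116 windows of this length, 11.5% held the TATA box, 45% the GC box and 45.3% the SMAD element. A match is a description of the letters and not evidence of binding.

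Between normal growth and serum, 11 of the 23 tested collagens were called in GFP cells, or 47.8%, beside 30.7% of all 12996 tested genes (adjusted p under 0.05). Of these 11, 8 rose and 3 fell, beside 14.9% of all genes higher and 15.7% lower. The median log2 fold change of the 23 was -0.02 (range -0.88 to 1.33), beside 0.01 for all genes. In G13R cells 7 of 23 collagens were called, or 30.4%, where 12.9% of all genes were called. By unadjusted p under 0.05 there were 15 of 23 in GFP cells beside 42.4% of all genes, and 11 of 23 in G13R cells beside 29.3%. Of the 7 called in G13R cells 5 rose and 2 fell, beside 8.26% and 4.62% of all genes, and the collagen median was -0.03 (range -0.72 to 1.44) beside 0.04.

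The 2 serum comparisons share no library, but they share the estimate of the spread of each gene, so their calls are not independent. COL6A1, COL6A2, COL13A1, COL8A1 and COL5A3 rose in both, COL6A3 fell in both, and no collagen was called in opposite directions. The 5 shared rises are 5 of the 8 in GFP cells and all 5 in G13R cells, and the shared fall is 1 of 3 and 1 of 2. Over all tested genes 822 rose in both, 42.3% of the rises in GFP and 76.5% of those in G13R cells, and 490 fell in both, 24% and 81.5% of the falls. The GFP count of 11 was 6 without GFP normal replicate 1 (4 higher and 2 lower, beside 16.7% of all genes called) and 7 without GFP normal replicate 2 (5 and 2, beside 19.5%). Without GFP serum replicate 2 it was 8, with 4 higher and 4 lower, beside 19.4%. The G13R count of 7 was 4 without G13R serum replicate 1 (beside 3.77% of all genes) and 4 without replicate 2 (beside 3.2%), each with 3 higher and 1 lower.

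**Figure D3:**
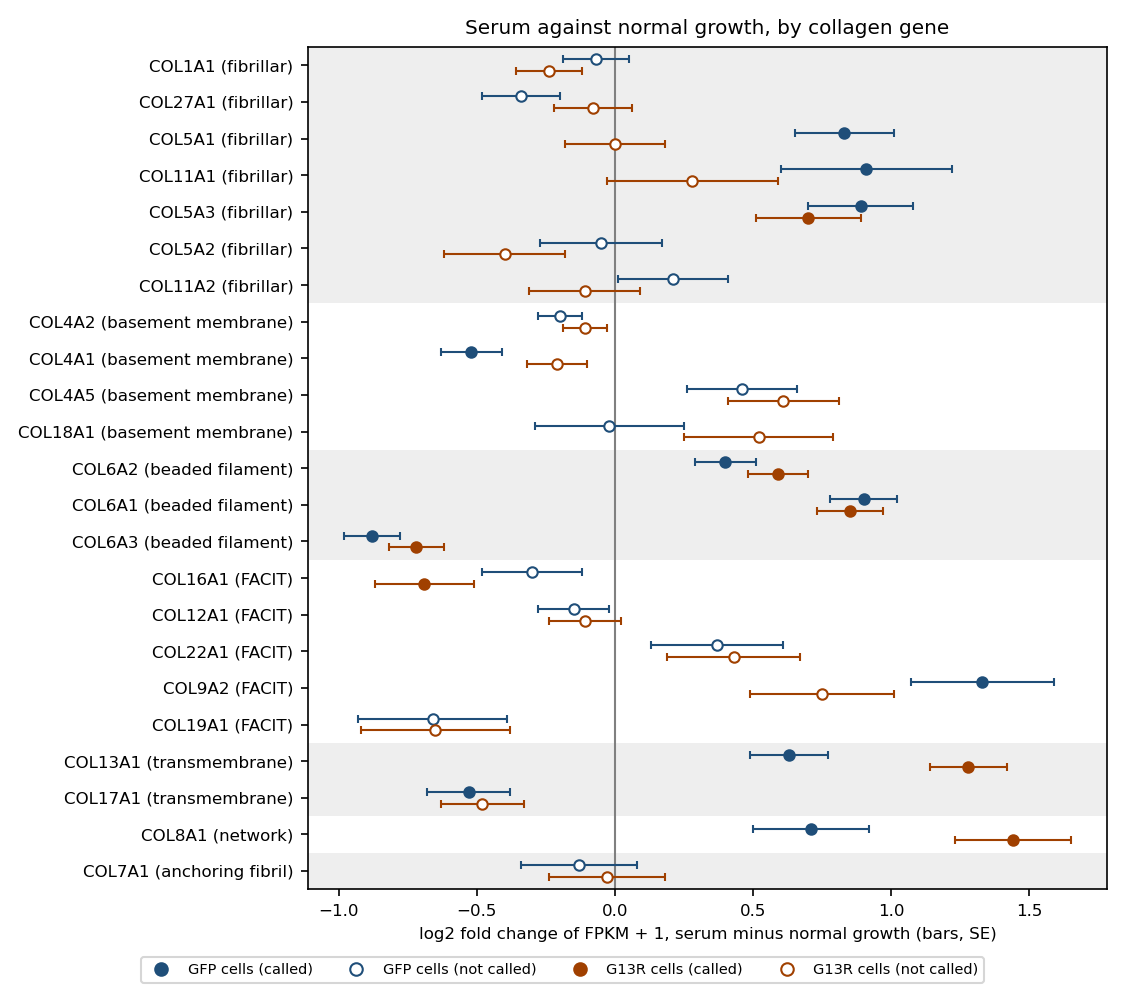
Serum response of each tested collagen on the log2(FPKM + 1) scale, in GFP and G13R cells, with SE bars; filled points were called at adjusted p under 0.05. The largest value in GFP cells is COL9A2 at 1.33, and in G13R cells COL8A1 at 1.44, while COL6A3 is the lowest in both.

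Of the 7 tested fibrillar genes, COL5A1, COL5A3 and COL11A1 rose after serum in GFP cells (42.9%, beside 30.7% of all genes called). COL5A3 rose in G13R cells (14.3%, beside 12.9%), while COL1A1, COL27A1, COL5A2 and COL11A2 were called in neither. COL1A1 (chromosome 17, 48260650 to 48278993) went from 36.6 and 45.6 FPKM to 38.4 and 39.3 after serum in GFP cells, and from 34.1 and 37.1 to 30.4 and 29.5 in G13R cells. The GFP groups overlapped, and the G13R serum libraries lay just under their normal growth libraries (adjusted p = 0.676 and 0.194). COL27A1, a fibrillar collagen of cartilage (chromosome 9), had 11.3 to 18.6 FPKM over the 8 libraries and was not called in any comparison, but its serum comparison in GFP cells passed without GFP serum replicate 1 (0.0325).

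Type V collagen regulates the diameter of type I fibrils, and its chains differed from each other. COL5A1 (chromosome 9, 137533620 to 137736686) rose in GFP cells from 3.28 and 3.25 to 5.66 and 7.65 FPKM (log2 fold change 0.83 ± 0.18, adjusted p = 0.00759). In G13R cells it stood at 3.66 and 3.72 in normal growth and 4.04 and 3.38 after serum, where the groups overlapped (adjusted p = 0.991). The difference of the 2 responses, G13R minus GFP, was -0.83 ± 0.26 with a 95% interval of -1.4 to -0.25, but did not pass over all genes (adjusted p = 0.302). The GFP call was lost without GFP serum replicate 2 (adjusted p = 0.0567).

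COL5A3, a minor type V chain (chromosome 19, 10070237 to 10121147), rose in both kinds of cells. GFP libraries went from 0.999 and 1.26 FPKM to 2.95 and 2.91, and G13R libraries from 1.09 and 0.921 to 2.14 and 2.37. The log2 fold changes were 0.89 ± 0.19 (adjusted p = 0.0073) and 0.70 ± 0.19 (adjusted p = 0.0415). The first call was lost without GFP normal replicate 1 (0.0558). The second was lost without the filter (0.0563), under quantile normalization (0.0876), and without G13R normal replicate 1 or 2 (0.118 and 0.165) or serum replicate 1 or 2 (0.138 and 0.186).

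COL5A2, which encodes the other main type V chain, was not called, at 0.765 to 2.06 FPKM over the libraries. The ratio of COL5A1 to COL5A2 was 1.58 to 2.9 in normal growth and 3.21 to 4.59 after serum over both kinds of cells.

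COL11A1 and COL9A2 belong to the collagens of cartilage fibrils, where type XI lies in the core and type IX on the surface. COL11A1 (chromosome 1, 103342023 to 103574052) rose in GFP cells from 1.49 and 1.39 to 3.44 and 3.72 FPKM (log2 fold change 0.91 ± 0.31, adjusted p = 0.048). Its G13R groups overlapped, at 0.822 and 1.88 in normal growth and 1.05 and 2.78 after serum. The GFP call was lost in 8 of 11 alternatives, among them a pseudocount of 0.1 (0.0711), no filter (0.125), quantile normalization (0.132) and no intensity trend (0.0647). It was also lost without GFP normal replicate 1 or 2 (0.139 and 0.149) and without GFP serum replicate 1 or 2 (0.0876 and 0.151). COL11A2, the second type XI chain, went from 0.947 and 0.647 FPKM to 1.07 and 1.07 after serum in GFP cells and from 1.63 and 1.74 to 1.44 and 1.52 in G13R cells, without a call.

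COL9A2 (chromosome 1, 40766159 to 40783488) had the largest rise of a collagen in GFP cells, from 2.22 and 2.66 to 7.91 and 7.39 FPKM (log2 fold change 1.33 ± 0.26, adjusted p = 0.00456). In G13R cells it stood at 3.23 and 1.45 in normal growth and 3.56 and 5.38 after serum (0.75 ± 0.26, adjusted p = 0.0929). That comparison passed without G13R normal replicate 1 (0.0476), and the difference of the responses did not (-0.59 ± 0.37, adjusted p = 0.562). Its partner genes were low: COL9A1 was listed at 0 in all 8 libraries and COL9A3 was at most 0.953 FPKM.

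Chondrocyte markers were read beside these cartilage collagens. The 7 listed markers summed to 24.7 to 30.7 FPKM in normal growth and 74 to 96.8 after serum, with 5 of 7 reaching 1 FPKM in at least 2 libraries and COMP at 0 throughout. SOX9, a transcription factor of cartilage, made up most of the sum, at 18.9 to 25.8 FPKM in normal growth and 56.5 to 67.2 after serum, while ACAN stayed under 1 FPKM. The sum was higher after serum in both kinds of cells. HAPLN1 went from a mean of 0.541 to 11 FPKM in GFP cells (serum libraries 4.63 and 17.4) and from 0.386 to 1.07 in G13R cells. SOX5, under 1 FPKM in every normal growth library, went from 0.774 to 5.28 (GFP serum libraries 3.2 and 7.37) and from 0.383 to 1.78. SOX6 went from 0.847 to 5.82 (GFP serum libraries 3.04 and 8.59) and from 0.826 to 4.4. MATN3 went from 2.86 to 4.88 (GFP serum libraries 3.56 and 6.2) and from 2.21 to 3.8. No test of the single markers is given. COL11A1 and COL9A2 were called in GFP cells and not in G13R cells. The differences of their responses were not called (limma adjusted p = 0.604 and 0.562). The 7 epithelial markers summed to 7.3 to 10.5 FPKM in normal growth and 13.7 to 19.1 after serum. Their part in the collagen results was not tested.

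Basement membrane collagens gave 1 call among 4 tested genes in GFP cells (25%, beside 30.7% of all genes) and 0 in G13R cells (beside 12.9%). COL4A1 (chromosome 13, 110801318 to 110959496), the alpha1 chain gene of type IV collagen, fell in GFP cells from 28.5 and 29.2 to 21.5 and 18.3 FPKM (log2 fold change -0.52 ± 0.11, adjusted p = 0.00569), and this call held in all 12 alternatives. In G13R cells it stood at 31.4 and 31 in normal growth and 26.8 and 26.9 after serum, lower in both libraries but not called (adjusted p = 0.223). The interval of the difference of the responses ran from -0.03 to 0.65.

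COL4A2 (110958159 to 111165374), the alpha2 chain gene, went from 93.3 and 99.4 to 82.3 and 85.6 FPKM after serum in GFP cells (adjusted p = 0.0963). Its G13R values were 101 and 105 in normal growth and 91.4 and 98.7 after serum (adjusted p = 0.394). Serum libraries were lower in each kind of cell without reaching the threshold. The ratio of COL4A2 to COL4A1 was 3.21 to 3.4 in normal growth and 3.41 to 4.68 after serum. This is a ratio of RNA and does not give the ratio of chains in the protein, where type IV protomers hold more alpha1 than alpha2. The hg19 spans of the 2 genes overlap by 1338 bases on opposite strands, and the sources used here do not say whether counting used strand. Some reads near the shared start could thus be assigned to either gene, which was not tested.

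The RefSeq windows of this pair are printed because both genes start from 1 shared stretch and were the most abundant basement membrane collagens here. COL4A1 is at chr13:110307108-110307407 on the minus strand and COL4A2 at chr13:110307034-110307333 on the plus strand (GRCh38.p14), with capitals for the same 7 motifs.
COL4A1: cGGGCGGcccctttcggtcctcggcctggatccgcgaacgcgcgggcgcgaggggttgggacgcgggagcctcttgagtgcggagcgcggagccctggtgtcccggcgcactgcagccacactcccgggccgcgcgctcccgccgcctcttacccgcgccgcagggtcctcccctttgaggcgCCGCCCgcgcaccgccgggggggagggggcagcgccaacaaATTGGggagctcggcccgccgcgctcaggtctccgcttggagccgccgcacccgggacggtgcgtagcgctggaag
COL4A2: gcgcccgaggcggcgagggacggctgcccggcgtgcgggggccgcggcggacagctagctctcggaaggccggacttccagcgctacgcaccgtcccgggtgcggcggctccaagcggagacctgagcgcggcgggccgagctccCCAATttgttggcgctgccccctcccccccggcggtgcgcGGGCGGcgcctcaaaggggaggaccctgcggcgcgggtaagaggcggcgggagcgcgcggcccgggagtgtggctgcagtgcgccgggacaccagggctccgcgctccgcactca
The annotated starts lie 127 bases apart, head to head, and the windows share 226 bases. Transcripts from these 2 starts would not overlap, unlike the hg19 spans above. The CCAAT box at positions 110307179 to 110307183 and the GC box at 110307219 to 110307224 stand in both windows, read from opposite strands, and COL4A1 has a further GC box. Of all windows 34.6% held the CCAAT box and 45% the GC box. Neither window held a TATA box, which says nothing about the factors that act there.

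The other head-to-head type IV pairs were low. COL4A5 (chromosome X) had 1.24 to 1.81 FPKM in normal growth and 2.57 to 3.15 after serum in the 2 kinds of cells together, without a call. Its log2 fold change was 0.46 ± 0.20 in GFP cells (adjusted p = 0.101) and 0.61 ± 0.20 in G13R cells (adjusted p = 0.067). It passed in both without the intensity trend (0.0403 and 0.0365). Its neighbour COL4A6, 346 bases away in the table, was at most 0.391 FPKM. COL4A4 did not pass the filter, but its 4 serum libraries, at 0.453 to 0.651 FPKM, lay above its 4 normal growth libraries, at 0.0463 to 0.226. In the fit without the filter, examined for this gene after its values were seen, it was higher after serum in both kinds of cells (adjusted p = 0.0225 and 0.0454). COL4A3, 451 bases from COL4A4, had 0.0171 to 0.356 FPKM with overlapping groups. COL18A1 was near the filter, at 0.275 to 1.23 FPKM, and was not called.

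The largest rises in G13R cells were in COL8A1 and COL13A1. COL8A1 (chromosome 3, 99357319 to 99518070), a short-chain network collagen, rose from 4.13 and 7.39 to 17.1 and 16.5 FPKM in G13R cells (a log2 difference of 1.44 ± 0.21, adjusted p = 0.0025). In GFP cells it rose from 9.58 and 9.67 to 15.1 and 17.8 (0.71 ± 0.21, adjusted p = 0.0255). The serum values of the 2 kinds of cells overlapped, and the normal growth values did not. The difference of the responses was 0.73 ± 0.29 (95% interval 0.08 to 1.38, adjusted p = 0.384). The GFP call was lost without the filter (0.0814), without GFP normal replicate 1 or 2 (0.102 and 0.0894) and without GFP serum replicate 2 (0.123). The related gene COL8A2 was at most 0.288 FPKM.

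COL13A1 (chromosome 10, 71561644 to 71724031) encodes a transmembrane collagen found at sites of cell adhesion. It rose from 9.88 and 10.1 to 25.6 and 25.6 FPKM in G13R cells (a log2 difference of 1.28 ± 0.14, adjusted p = 0.000797) and from 12.7 and 11.1 to 21.7 and 16.5 in GFP cells (0.63 ± 0.14, adjusted p = 0.00912). The G13R replicates were close to each other and the GFP serum libraries were apart. Without GFP normal replicate 2 the GFP call was lost (0.0644). The difference of the responses was 0.65 ± 0.20 (95% interval 0.2 to 1.1, adjusted p = 0.299), and without GFP serum replicate 1 it was 0.84 and passed (adjusted p = 0.0386).

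**Figure D4:**
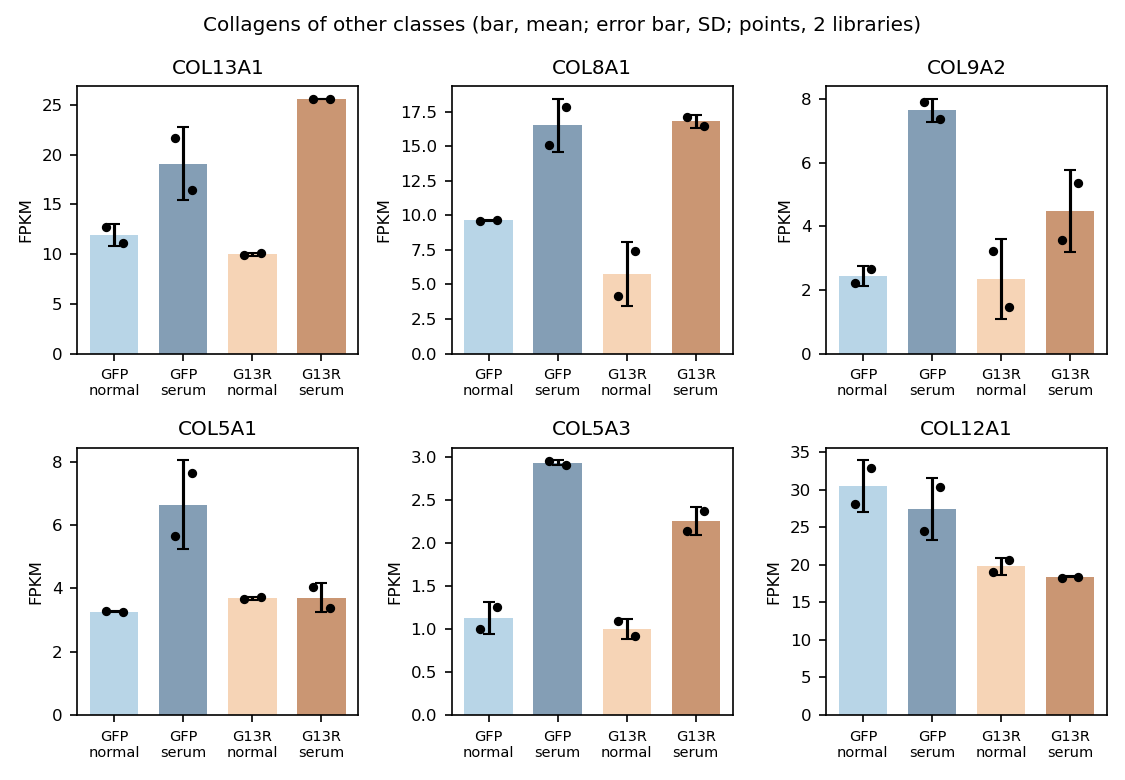
FPKM of 6 collagens in the 4 groups; bars are means, error bars SD and points the 2 libraries. COL13A1, COL8A1 and COL5A3 are higher in both serum groups, COL5A1 is highest in the GFP serum group, and COL12A1 is lower in both G13R groups.

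COL17A1, the transmembrane collagen of hemidesmosomes, moved down. It fell in GFP cells from 11.8 and 11.6 to 7.06 and 8.61 FPKM (log2 fold change -0.53 ± 0.15, adjusted p = 0.0216). This call was lost without GFP normal replicate 1 or 2 (0.0968 and 0.0778), without GFP serum replicate 1 (0.0872) and with only the compared libraries in the fit (0.0527). In G13R cells it had 13 and 14.4 in normal growth and 10.3 and 8.8 after serum (-0.48 ± 0.15, adjusted p = 0.0562), and it passed there in 4 of 12 alternatives.

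Among the FACIT collagens, COL16A1 (chromosome 1, 32117848 to 32169920) fell in G13R cells from 30.8 and 34.5 to 19.1 and 20.6 FPKM (log2 fold change -0.69 ± 0.18, adjusted p = 0.0362). Its GFP groups overlapped, at 28.2 and 33.4 in normal growth and 19.7 and 31.2 after serum, and the 2 GFP serum libraries stood far apart. The G13R call was lost without the filter (0.114), without the trend (0.0843), without G13R normal replicate 1 or 2 (0.105 and 0.172) and without G13R serum replicate 1 or 2 (0.17 and 0.122).

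The remaining tested collagens had no serum call. COL12A1, a FACIT collagen of dense connective tissue, went from 28.1 and 32.9 to 24.5 and 30.3 FPKM after serum in GFP cells and from 19 and 20.7 to 18.3 and 18.4 in G13R cells, and COL22A1, found at tissue junctions, had 3.48 to 9.27 FPKM over the 8 libraries. COL7A1, the anchoring fibril collagen of skin, had 6.9 to 10.6 FPKM with overlap in each comparison. COL19A1 stood at 0.617 to 1.44 FPKM in normal growth and 0.124 to 0.679 after serum (adjusted p = 0.095 in GFP and 0.142 in G13R cells).

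The comparison of G13R with GFP cells asks which collagens differed between these kinds of cells. No library came from cells overexpressing wild-type actin. ACTB stood at 7949 to 11245 FPKM in the G13R libraries and at 2543 to 2779 in the GFP libraries. The mutation itself cannot be told apart from the higher ACTB level or from any other difference between the cells, and their parts were not tested. In normal growth 0 of 23 collagens were called, where 0.0462% of all tested genes were called (0.0385% higher and 0.00769% lower in G13R cells). By limma's unadjusted p under 0.05 there were 4, COL6A3, COL8A1, COL11A2 and COL12A1, or 4 of 23 beside 15.1% of all genes. After serum 1 of 23 was called, beside 0.823% of all genes (0.331% higher and 0.492% lower), and 10 had an unadjusted p under 0.05, beside 20.8%. These comparisons use the same libraries as the serum comparisons above.

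The called gene was COL6A3, which was higher in G13R cells after serum, at 27.9 and 26.5 FPKM against 17.8 and 18.9 in GFP cells (log2 fold change 0.54 ± 0.10, adjusted p = 0.0443). In normal growth it stood at 45.3 and 45.5 against 34.8 and 34.4 FPKM (0.38 ± 0.10, adjusted p = 0.162). G13R libraries were above GFP libraries in both conditions. The call after serum was lost without the filter (0.167), without the trend (0.127) and with only the compared libraries (0.181). It was also lost without G13R serum replicate 1 or 2 (0.349 and 0.165) and without GFP serum replicate 2 (0.112).

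COL12A1 (chromosome 6, 75794042 to 75915767) was the collagen with the smallest p in normal growth. In normal growth it had 19 and 20.7 FPKM in G13R and 28.1 and 32.9 in GFP cells (log2 fold change -0.59 ± 0.13, adjusted p = 0.129), and 18.3 and 18.4 against 24.5 and 30.3 after serum (-0.55 ± 0.13, adjusted p = 0.0713). All 4 G13R libraries were under all 4 GFP libraries, without a call. Without GFP serum replicate 1 the comparison after serum passed (0.0119).

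**Figure D5:**
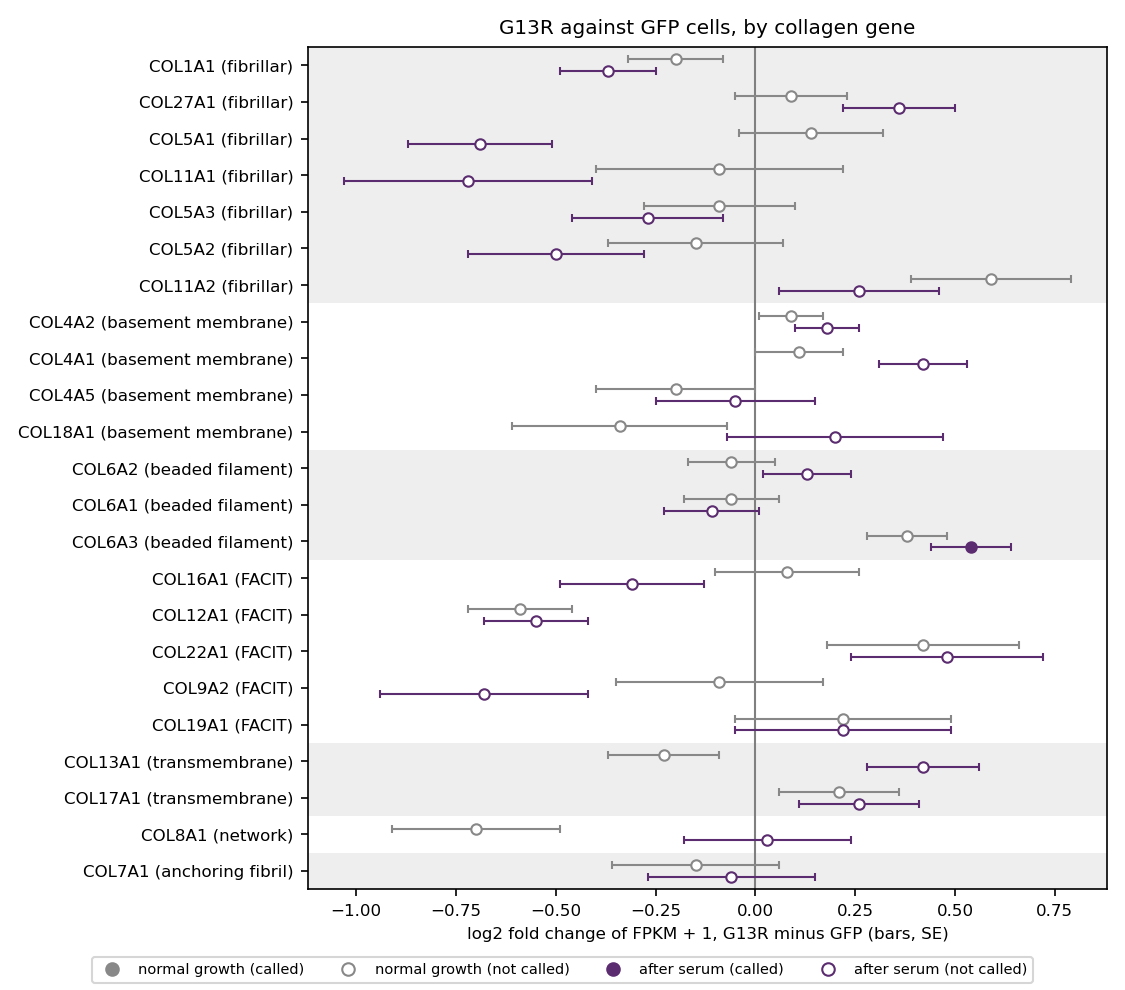
Difference between G13R and GFP cells for each tested collagen on the log2(FPKM + 1) scale, in normal growth and after serum, with SE bars. COL6A3 after serum, at 0.54, is the filled point that was called, and COL12A1 lies below 0 in both conditions, at -0.59 and -0.55.

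Fibrillar genes had a median log2 difference between G13R and GFP cells after serum of -0.37 with 0 of 7 called, beside -0.03 over all genes. COL5A1 (-0.69 ± 0.18, adjusted p = 0.0881), COL11A1 (-0.72 ± 0.31, adjusted p = 0.222), COL5A2 (-0.50 ± 0.22, adjusted p = 0.229) and COL1A1 (-0.37 ± 0.12, adjusted p = 0.123) had lower values in both G13R libraries, as did COL5A3 (-0.27 ± 0.19, adjusted p = 0.454). COL27A1 (0.36 ± 0.14, adjusted p = 0.2) and COL11A2 (0.26 ± 0.20, adjusted p = 0.499) had higher values in both. The groups of all 7 thus did not overlap, as was so for 51.9% of all tested genes. COL4A1 had 26.8 and 26.9 FPKM in G13R against 21.5 and 18.3 in GFP cells after serum (0.42 ± 0.11, adjusted p = 0.0843). Without GFP serum replicate 1 the comparisons of COL5A1, COL4A1 and COL13A1 passed (0.0237, 0.0161 and 0.0247). Below the filter, COL20A1 stood at 0.363 to 0.952 FPKM in the 4 G13R libraries and at 0.0272 to 0.265 in the 4 GFP libraries. In the fit without the filter COL20A1, singled out after its values were seen, had adjusted p = 0.198 in normal growth and 0.17 after serum.

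The difference between the serum responses of G13R and GFP cells was called for 0 of 23 collagens, and 0% of all tested genes were called by limma. At an unadjusted p under 0.05 there were 3 collagens, COL13A1, COL8A1 and COL5A1, beside 11.8% of all genes. A p that misses the threshold does not show that the responses were equal.

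Collagen chains are modified, folded, cut and crosslinked by a dedicated set of proteins, and of 37 listed maturation symbols 33 were found in the table and 30 were tested. In GFP cells 5 rose and 3 fell after serum, 26.7% of the 30 beside 30.7% of all genes. In G13R cells 3 rose and 3 fell, 20% beside 12.9%. In neither comparison of G13R with GFP cells was 1 of the 30 called, beside 0.0462% of all genes in normal growth and 0.823% after serum. With so few calls over all genes, this says little about the maturation genes. By limma's unadjusted p under 0.05 there were 8 of 30 in normal growth beside 15.1% of all genes, and 4 of 30 after serum beside 20.8%. After serum LOXL4 (log2 fold change -1.45 ± 0.29, adjusted p = 0.0535) and LOXL2 (-0.70 ± 0.15, adjusted p = 0.0569) came nearest to a call.

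The enzymes and chaperones that act inside the cell mostly had no call. The collagen chaperone gene SERPINH1 had 109 ± 16.8 FPKM (SD, n = 2) in normal growth and 110 ± 12 after serum in GFP cells, and 87.8 ± 7.87 and 95.7 ± 2.64 in G13R cells. P4HB, the shared subunit of prolyl 4-hydroxylase, had 395 ± 18.4 and 429 ± 15.6 FPKM in GFP cells and 345 ± 29.9 and 391 ± 9.4 in G13R cells. The catalytic subunit gene P4HA1 had 12.7 to 14.5 FPKM as group means, and the lysyl hydroxylase genes PLOD1 and PLOD2 had 68 to 83.1 and 30.9 to 42.3. Of 12 hydroxylation genes, 1 was called in GFP cells after serum, or 8.33% beside 30.7% of all genes, and 0 in G13R cells, beside 12.9%. Of 8 folding and export genes 3 were called in GFP cells, or 37.5% beside 30.7% of all genes. In G13R cells 2 were called, or 25% beside 12.9%. These are too few genes to set either share apart from that of all genes. P4HA2 rose in GFP cells from 20.5 ± 0.00849 to 27.9 ± 5.84 FPKM (a log2 difference of 0.42 ± 0.14, adjusted p = 0.0431). That call was lost without GFP normal replicate 1 or 2 (0.144 and 0.132), without the filter (0.0854), without the trend (0.0732) and with only the compared libraries (0.0979). Without GFP serum replicate 2 the change was 0.21 (0.266).

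Among folding and export genes, MIA3, which loads bulky procollagen into transport carriers, rose from 16.3 ± 0.0536 to 26 ± 3.08 FPKM in GFP cells (log2 fold change 0.64 ± 0.14, adjusted p = 0.00678) and from 16.6 ± 2.7 to 23.4 ± 1.43 in G13R cells (0.48 ± 0.14, adjusted p = 0.0472). The ion channel gene TMEM38B, which supports collagen processing in the endoplasmic reticulum, fell from 21.5 ± 1.49 to 9.87 ± 1.71 in GFP cells (-1.06 ± 0.14, adjusted p = 0.000661) and from 19.2 ± 1.77 to 11.8 ± 0.578 in G13R cells (-0.66 ± 0.14, adjusted p = 0.0162). The prolyl isomerase gene FKBP14 fell in GFP cells (-0.72 ± 0.13, adjusted p = 0.00231). Without single G13R libraries the G13R calls were lost, at adjusted p of 0.0577, 0.251, 0.134 and 0.223 for MIA3 and 0.0574, 0.106, 0.0746 and 0.107 for TMEM38B (normal replicates 1 and 2, then serum replicates 1 and 2). The MIA3 call in G13R cells was also lost without the filter (0.0983), without the trend (0.0851), under median-ratio scaling (0.0597) and under quantile normalization (0.0898).

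Of the propeptide proteinases, ADAMTS3 fell from 7.6 ± 0.108 to 4.07 ± 0.461 FPKM in GFP cells (log2 fold change -0.77 ± 0.16, adjusted p = 0.00511) and from 6.37 ± 0.48 to 4.05 ± 0.0202 in G13R cells (-0.54 ± 0.16, adjusted p = 0.0468). The G13R call was lost when any G13R library was left out (0.118 and 0.195 without normal replicates 1 and 2, 0.176 and 0.167 without serum replicates 1 and 2) and without the filter (0.0886). ADAMTS2 had 1.36 ± 0.68 to 1.99 ± 0.541 FPKM and BMP1 9.4 ± 0.0346 to 13 ± 1.5 FPKM as group means, both without a call.

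Of the 5 crosslinking enzymes of the lysyl oxidase family, 3 rose in GFP cells (60% called, beside 30.7% of all genes). In G13R cells 2 rose and 1 fell (60% called, beside 12.9%). LOXL4 had the largest log2 fold change of the tested maturation genes in both kinds of cells. LOXL4 (chromosome 10, 100007447 to 100028007) rose from 5.18 ± 1.66 to 49.1 ± 24.1 FPKM in GFP cells (log2 fold change 2.96 ± 0.29, adjusted p = 0.000127) and from 4.72 ± 0.204 to 16.3 ± 1.5 in G13R cells (1.59 ± 0.29, adjusted p = 0.00749). LOXL1 rose from 11 ± 0.205 to 21 ± 2.68 in GFP cells (0.87 ± 0.13, adjusted p = 0.000987) and from 8.59 ± 0.146 to 17.7 ± 0.0998 in G13R cells (0.96 ± 0.13, adjusted p = 0.00169). LOXL2 rose in GFP cells from 11.6 ± 2.38 to 20 ± 1.5 (0.75 ± 0.15, adjusted p = 0.0044), and LOX fell in G13R cells from 22.2 ± 1.36 to 13.8 ± 1.64 (-0.65 ± 0.14, adjusted p = 0.0172). The G13R call of LOXL4 was lost without the filter (0.052), without G13R normal replicate 1 (0.0576) and without G13R serum replicate 2 (0.0663). That of LOX was lost without any 1 of the G13R libraries (0.108 and 0.0626 without normal replicates 1 and 2, 0.13 and 0.0544 without serum replicates 1 and 2) and without the filter (0.0525).

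Of 18 listed genes whose proteins bind fibrils or basement membranes, 9 were tested. In GFP cells 4 rose and 1 fell after serum (55.6% called, beside 30.7% of all genes), and in G13R cells 2 rose and 1 fell (33.3%, beside 12.9%). FN1, the fibronectin gene, rose from 96.1 ± 7.77 to 148 ± 18.2 FPKM in GFP cells (adjusted p = 0.00245) and from 73.8 ± 3.09 to 139 ± 11.5 in G13R cells (adjusted p = 0.00101). THBS1, which encodes thrombospondin, rose from 57.9 ± 4.58 to 129 ± 0.0445 in GFP cells (adjusted p = 5.56e-05) and from 54.3 ± 2.44 to 108 ± 9.29 in G13R cells (adjusted p = 0.000336). The basement membrane linker gene NID1 rose in GFP cells (0.47 ± 0.12, adjusted p = 0.0149), a call lost without GFP normal replicate 1 or 2 (0.0792 and 0.0556) and without GFP serum replicate 2 (0.0787). TGFBI, whose product links collagens to cells, fell from 28.9 ± 0.745 to 15.8 ± 2.11 in GFP cells (-0.84 ± 0.13, adjusted p = 0.00128) and from 49.8 ± 0.583 to 15.6 ± 2.19 in G13R cells (-1.62 ± 0.13, adjusted p = 0.000109). The proteoglycan genes DCN, BGN, FMOD, OGN, ASPN, KERA and PRELP did not pass the filter.

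Of 12 listed collagen receptor symbols 11 were in the table and 8 were tested. After serum 3 rose and 1 fell in GFP cells (50% called, beside 30.7% of all genes), and 2 rose and 1 fell in G13R cells (37.5%, beside 12.9%). DDR1, a receptor tyrosine kinase that binds collagen, rose from 12.2 ± 4.02 to 36.1 ± 2.79 FPKM in GFP cells (adjusted p = 0.000314) and from 17.7 ± 0.44 to 36 ± 0.124 in G13R cells (adjusted p = 0.00685). MRC2, which takes up collagen fragments for degradation, rose from 24.2 ± 3.29 to 55.9 ± 8.21 in GFP cells (adjusted p = 0.000259) and from 28 ± 0.732 to 43.8 ± 3.54 in G13R cells (adjusted p = 0.0137). GPR56, a receptor for type III collagen, rose in GFP cells from 10.5 ± 0.11 to 17.4 ± 2.22 (adjusted p = 0.00408). ITGB1, the beta subunit of the collagen-binding integrins, fell in both (adjusted p = 0.0166 in GFP and 0.0288 in G13R cells), with log2 changes of -0.3 and -0.32. Leaving out single G13R libraries ended the G13R calls of DDR1 (0.0545 and 0.0563 without serum replicates 1 and 2), MRC2 (0.0546 to 0.109 over the 4 libraries) and ITGB1 (0.0949 to 0.165). The G13R call of MRC2 was also lost without the filter (0.0514), and that of ITGB1 without the filter (0.0682) and without the trend (0.117). The GFP call of ITGB1 was lost without GFP normal replicate 1 (0.141) and serum replicate 1 (0.051), under quantile normalization (0.111), without the trend (0.0782) and with only the compared libraries (0.0603).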

How the data were processed

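Polyadenylated RNA of U2OS cells was sequenced on an Illumina instrument, per the labels' protocols. Per-gene FPKM of all libraries stand in 1 table made by the authors. TopHat2 2.0.13 and Cufflinks 2.2.1, and the builds hg19 and BDGP5, are named per the submitters' processing notes. The annotation and strand setting are not given in the sources used here. FPKM values keep no read counts, so depth is unknown and no interval for counting error could be given. Columns were matched to samples by their names (C was taken to mean normal growth), and 0 were unmatched. Table starts count from 0, so 1 was added.

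limma 3.58.1 (R 4.3.3) was fitted to log2(FPKM + 1), with an intensity trend, 1 mean per group over all 8 libraries and 4 residual degrees of freedom. The 12996 genes that reached 1 FPKM in 2 or more libraries were tested, and p-values were adjusted by Benjamini-Hochberg over all of them. Calls had an adjusted p under 0.05. The scale understates changes of low genes. Every collagen that passed could be named; those called and the 5 with the highest means are given in full. Of the other lists, 10 maturation genes were always given, and up to 3 called genes each way per comparison and list. The collagens, classes, lists and rules were chosen with earlier results of these data known. The alternatives changed the pseudocount (0.1), the filter (none, or 5 FPKM), the scaling (median-ratio or quantile), the trend (none), the libraries in the fit (those compared, or each left out in turn) and the design (a replicate block). When 1 library is left out of a group, the lone library is assumed to vary like the others. The fit was also run on simulated data with shifts larger than any collagen change here. That run does not show how well changes of the size seen here are found. Promoter windows of 18 of the 23 tested collagens were found in a RefSeq table; COL1A1, COL5A2, COL6A1, COL8A1 and COL22A1 were not.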

Additional observations from a re-analysis of the deposited data

Results flagged for a closer look

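The libraries of COL11A2, a gene near the filter, were ordered oppositely in the 2 kinds of cells. Both GFP serum libraries (1.07 and 1.07 FPKM) lay above both normal growth libraries (0.947 and 0.647). Both G13R serum libraries (1.44 and 1.52) lay below theirs (1.63 and 1.74). Neither serum response was called by limma (0.21 ± 0.20, adjusted p = 0.469 in GFP cells, and -0.11 ± 0.20, adjusted p = 0.751 in G13R cells). The share of all genes with such an order was not computed. The difference of the responses, G13R minus GFP, was -0.32 ± 0.29 on the log2(FPKM + 1) scale and did not pass limma's test (adjusted p = 0.693, and 0.526 to 0.876 over 14 alternatives).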

How the results depend on the processing

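The number of collagens called after serum was 11 in GFP cells and 9 to 11 in the alternatives that left out no single library, and 7 and 6 to 8 in G13R cells. The number tested and the share of all genes called moved as well. Without the filter, 10 of 42 collagens were called in GFP cells beside 16.5% of all genes, and 6 of 42 in G13R cells beside 4.81%. With the filter at 5 FPKM, 9 of 16 were called in GFP cells beside 37.5%, and 7 of 16 in G13R cells beside 17.9%. Leaving out 1 library gave 6 to 10 in GFP and 4 to 5 in G13R cells. The genotype comparison in normal growth gave 0 collagens in all 12 alternatives. After serum it gave 1 collagen, but 0 without the filter, 0 without the trend, 0 with only the compared libraries, 2 under the replicate block and 0 to 6 when 1 library was left out, while the share of all genes called, 0.823%, ran from 0.0206% without the filter to 12.6% without GFP serum replicate 1. The difference of the responses gave 0 collagens, and 0 to 1 when 1 library was left out. Of the log2 fold changes examined, the uncalled one of COL1A1 after serum in GFP cells (-0.07) changed sign: it was 0.01 with quantile scaling and ran from -0.22 to 0.08 when 1 library was left out. No other changed sign. The correlation of replicate differences across genes was 0.02 to 0.12 between groups, which does not settle whether same-numbered libraries shared more than a number. With the replicate block, the share of all genes called between G13R and GFP cells went from 0.0462% to 0.639% in normal growth. After serum it went from 0.823% to 3.1%. The replicate block gave 11 and 7 serum calls and changed no collagen call other than that of COL12A1, lower in G13R cells after serum (adjusted p = 0.0454). Under it MIA3 and ADAMTS3 had adjusted p of 0.0585 and 0.0502 for serum in G13R cells. No scaling moved the median of all genes by over 0.1. The causes of these changes were not tested. FPKM values give no depth, so values under about 1 FPKM have unknown precision.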
